A study of Mus musculus with 8 samples.

Results

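The nuclear-encoded genes of the mitochondrial respiratory chain were described in keratinocytes, the epithelial cells of the skin, from mice that lack or keep Hmgb1, a DNA-binding chromatin protein that also acts as an alarm signal outside the cell. The genes were chosen by symbol: names starting with Nduf and a subunit letter (complex I), the 4 Sdh subunits (complex II), names starting with Uqcr (complex III), Cox4 to Cox8 names (complex IV) and names starting with Atp5 (complex V, the ATP synthase). Assembly factors named Ndufaf and pseudogene names were left out. This gave 85 of the 24421 symbols counted: 38 of complex I, 4 of complex II, 8 of complex III, 18 of complex IV and 17 of complex V.

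Total RNA was sequenced from skin keratinocytes of 4 knockout libraries (InvEE, K5 Cre+, HMGB1 fl/fl) and 4 control libraries (InvEE, K5 Cre-, HMGB1 fl/fl), all of strain CBA x C57Bl/6J. Both groups carry the floxed Hmgb1 gene and the InvEE transgene, an activated form of the kinase MEK1 driven by the involucrin promoter, which is active in differentiating keratinocytes. K5 Cre recombines floxed DNA in basal keratinocytes and their descendants, and since the knockouts alone carry it, Cre itself and the loss of Hmgb1 cannot be told apart. The labels give no age. Nor do they say whether the numbered replicates came from different animals, and the p-values therefore reflect library-to-library spread that could be technical in part.

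The respiratory chain passes electrons from NADH (complex I) and succinate (complex II) through complexes III and IV to oxygen. The proton gradient that complexes I, III and IV build drives ATP synthesis by complex V. Most subunits are encoded in the nucleus, and several complex IV subunits come in paralogous isoforms, some of them known for heart, skeletal muscle, lung or testis. NRF1, the ETS factor GABP and YY1 are transcription factors known to bind the promoters of many of these genes.

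Promoter stretches of 4 genes are shown for the contrast between genes whose windows hold these motifs and one whose window holds none. They were taken from RefSeq promoter windows of GRCm38.p6 (300 bases, 250 before the annotated start and 50 from it). Sdhd and Uqcr11 are members with low unadjusted p-values, Cox6a1 is the widely expressed isoform of its pair and holds both NRF1 and ETS motifs, and Atp5b has the highest level per length of all members. Capitals mark the NRF1 motif or the ETS motif on either strand. The NRF1 motif is GCGC and TGCGC with any base between them. On the other strand it reads GCGCA and GCGC, again with any base between them. The ETS motif is CCGGAAG, which reads CTTCCGG on the other strand. The stretches are chr9:50603850-50603939 (minus strand) for Sdhd, chr10:80406822-80406971 (minus strand) for Uqcr11, chr5:115348962-115349138 (minus strand) for Cox6a1 and chr10:128083157-128083272 (plus strand) for Atp5b.
Sdhd: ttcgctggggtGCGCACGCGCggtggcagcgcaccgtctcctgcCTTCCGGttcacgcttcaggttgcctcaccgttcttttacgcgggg
Uqcr11: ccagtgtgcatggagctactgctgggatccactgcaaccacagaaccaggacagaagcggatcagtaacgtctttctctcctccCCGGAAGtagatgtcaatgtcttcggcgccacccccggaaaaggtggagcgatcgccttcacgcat
Cox6a1: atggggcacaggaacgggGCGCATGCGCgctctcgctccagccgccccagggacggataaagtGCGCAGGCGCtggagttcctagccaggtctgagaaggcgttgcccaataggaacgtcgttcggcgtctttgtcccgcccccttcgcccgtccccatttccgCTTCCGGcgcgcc
Atp5b: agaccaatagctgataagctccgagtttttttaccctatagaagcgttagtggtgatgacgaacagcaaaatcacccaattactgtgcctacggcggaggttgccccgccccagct

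The motifs were searched on both strands of every window. An NRF1 motif was found in 25% of the 68 windows of 63 tested members, against 9.56% of the windows of all tested genes. The ETS motif was found in 23.5% of the member windows against 16.7%, and the YY1 motif AAGATGGCG in 10.3% against 2.88%. At least 1 of the 3 stood in 50% of the member windows, against 26.2% for all tested genes and 13.6% for all windows in the table. The ETS and YY1 motifs can share the letters AAG where they adjoin, and a match describes the sequence only. 4 members held both an NRF1 and an ETS motif: Atp5h, Atp5k, Cox6a1 and Sdhd. The fold changes of members with and without a motif lay close together, with a median log2 fold change of -0.04 for the 33 with any of the 3 and 0.00 for the 30 with none.

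Library totals over genes were 30506676 to 34229030 counts. Hmgb1 had 113 to 126 CPM (counts normalised to library size, with TMM scaling) in knockout libraries and 566 to 615 CPM in control libraries, which fits the labels. Y-linked transcripts were present in knockout replicate 1 and control replicates 2 and 3 (6110 to 6743 counts, against 0 to 51 in the others). Xist ran the other way, at 0.22 to 4.91 CPM in these libraries and 1283 to 2323 CPM in the others. Each group held libraries of both sexes, in unlike proportion, so neither group came from a single animal. The keratins Krt5 and Krt14, which mark basal keratinocytes, averaged 24210 and 17440 CPM in knockouts against 23790 and 17730 CPM in controls. All 7 fibroblast markers together reached 3.50 to 24.1 CPM in knockout libraries and 6.00 to 12.2 CPM in control libraries, and all 10 skeletal muscle markers 2.01 to 2.62 CPM in knockouts and 2.46 to 3.05 CPM in controls. Other lists were higher. The 6 Langerhans and dendritic cell markers summed to 216.9 to 397.5 CPM in knockouts and 212 to 297.3 CPM in controls. The 5 T cell markers found summed to 240.1 to 336.9 CPM in knockouts and 174 to 243.7 CPM in controls. No tested gene of either list was called, and the share of single genes in these sums is not shown here. Over all tested genes, 4.33% rose and 4.54% fell in knockouts at an adjusted p under 0.05 (edgeR). Of the 12 keratinocyte markers 2 rose in knockouts, Krt10 of differentiating cells and Perp of desmosomes (log2 fold changes 0.82 and 0.45). Of the 4 fibroblast markers tested 1 rose, Dcn (1.53), while Col1a2 had -0.44, Col1a1 0.23 and Col3a1 0.10. Of the 4 melanocyte markers tested 1 fell, Mitf (-0.75), while Tyr had 0.30, Pmel 0.10 and Dct -0.48. None of these 4 calls held in a smaller comparison of only the 5 libraries lacking Y-linked transcripts (adjusted p = 0.121 for Krt10, 0.278 for Perp, 0.0895 for Dcn and 0.0984 for Mitf, edgeR). All 4 held in the fit of every library with a term for Y-linked transcripts. Mitf also held in all 8 fits with a library left out. Krt10 and Dcn also lost theirs without knockout replicate 2 and without control replicate 2 (adjusted p = 0.0546 and 0.0564 for Krt10, 0.0604 and 0.0563 for Dcn). Perp did not pass in 5 of 8 fits with a library left out, those without knockout replicates 1 and 2 and control replicates 1, 2 and 3 (adjusted p up to 0.103). The part of these markers in the values below was not tested.

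No respiratory chain gene passed the test between knockout and control keratinocytes. Of 85 members, 78 had enough counts to be tested, and 0 had an adjusted p under 0.05 by edgeR's quasi-likelihood test with Benjamini-Hochberg adjustment over 13016 genes. In the same comparison 8.87% of all tested genes were called, 4.33% higher and 4.54% lower in knockouts (563 and 591 genes, or 370 and 997 when libraries were scaled by their totals alone). At an unadjusted p under 0.05, 5 members passed (6.41%), against 26.2% of all tested genes: Ndufa4l2 with a higher value in knockouts, and Uqcr11, Sdhd, Atp5sl and Atp5g1 with lower ones. The knockout and control libraries did not overlap for 3 members (3.85%), against 17% of all tested genes. DESeq2 called 1 member, against 15.4% of all genes. limma-voom called 0, against 8.84% of all genes, and 3 with quality weights, against 14.7%.

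The intervals show how large a difference each member could have under TMM scaling. They were taken gene by gene without adjustment for the number of genes, and leave out any error in the scaling. The 95% confidence interval of the log2 fold change lay within 1.5-fold in either direction for 75 of 78 members (96.2%), against 55.2% of all tested genes. It lay within 2-fold for 76 members (97.4%), against 80.1%. The exceptions at 1.5-fold were Ndufa4l2, Sdhd and Cox6b2. Members were also measured more tightly than most genes, with a median standard error of 0.11 against 0.14 on the log2 scale and a median within-group SD of 0.15 against 0.20. In bulk RNA, fewer cells of a type and less RNA per cell cannot be told apart.

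**Figure D1:**
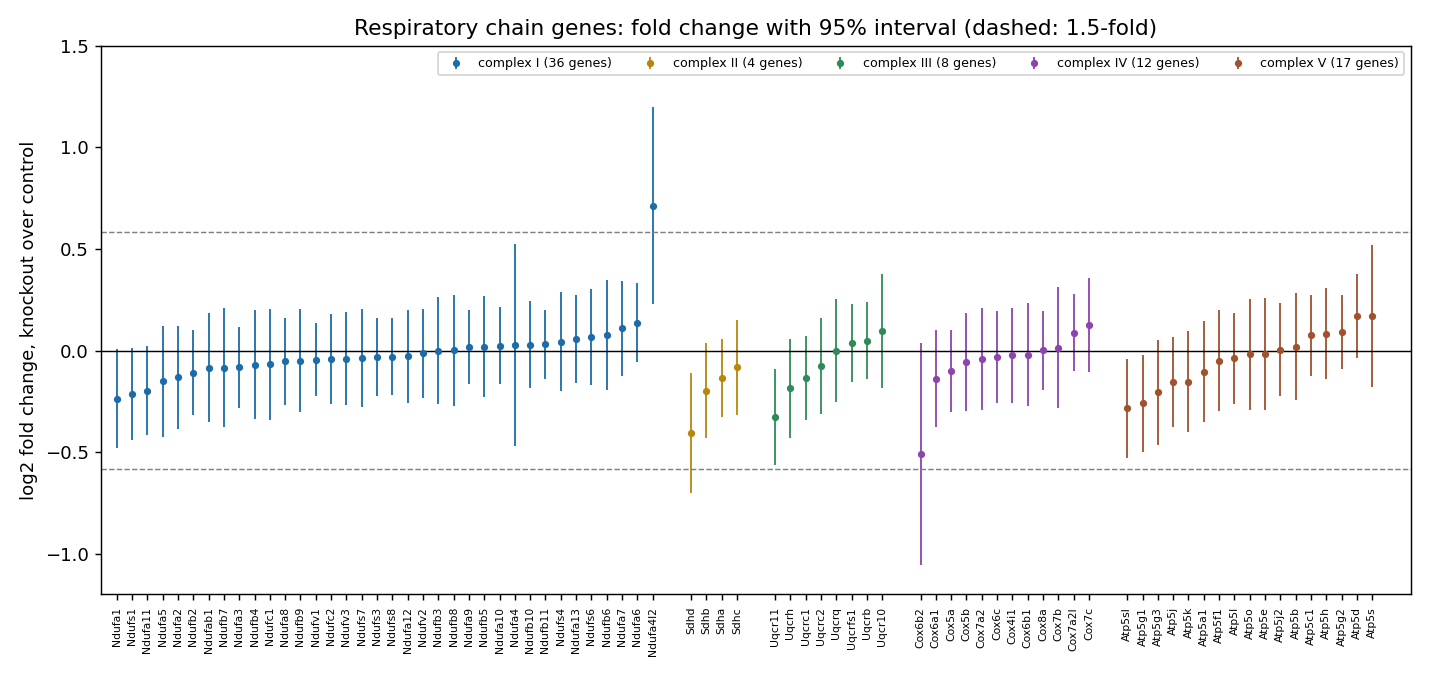
Log2 fold change (knockout over control, y axis) with its 95% confidence interval for 77 of the 78 tested members, grouped and coloured by complex and ordered within it, with dashed lines at 1.5-fold. Most points lie near 0, and the intervals of Ndufa4l2, Sdhd and Cox6b2 cross a dashed line.

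Summed over all 85 members, the level was 8735, 7682, 8198 and 7244 CPM in knockout replicates 1 to 4, and 7433, 8087, 8864 and 7751 CPM in control replicates 1 to 4. The groups overlapped, with means of 7965 ± 644.5 CPM in knockouts and 8034 ± 614.6 CPM in controls (SD, n = 4 each). Members made up 0.723 to 0.820% of the gene counts in knockout libraries and 0.778 to 0.938% in control libraries. 50 of 78 log2 fold changes were below 0 (64.1%, against 53.1% of all tested genes), with a median of -0.03 against -0.02.

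That slight lean reversed under some alternatives and grew under others. It turned to 34 of 78 below 0 with a term for Y-linked transcripts, and to 31 of 78 in the 5 libraries without them. It was also 31 of 78 without knockout replicate 4 and 30 of 78 without control replicate 3. Under every other alternative more members lay below 0 than above. The count was 58 of 78 without knockout replicate 1 or 3, and 59 without control replicate 1. It was also 59 with limma-voom quality weights, where the member median was -0.07, against -0.02 for all genes. Upper quartile scaling put 64 of 78 below 0. Scaling by library totals shifted the median of all genes by -0.11 on the log2 scale and put 72 of 78 members below 0.

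The members of the complexes varied together from library to library within each group. Relative to its mean over the 8 libraries, the median member deviated by 0.11, -0.08, 0.08 and -0.17 (log2) in knockout replicates 1 to 4, and by -0.09, 0.05, 0.18 and -0.06 in control replicates 1 to 4. Control replicate 3 held the highest value of 39 of the 78 members, knockout replicate 1 of 17 and knockout replicate 3 of 15. Knockout replicate 4 held the lowest value of 45 members. The 3 libraries with Y-linked transcripts all had positive medians, and the fourth with a positive median was knockout replicate 3. Complexes I, III, IV and V had the same sign in every library. The median complex II subunit went against the others in knockout replicate 3 (-0.08, against 0.07 to 0.13) and control replicate 4 (0.03, against -0.09 to -0.05).

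**Figure D2:**
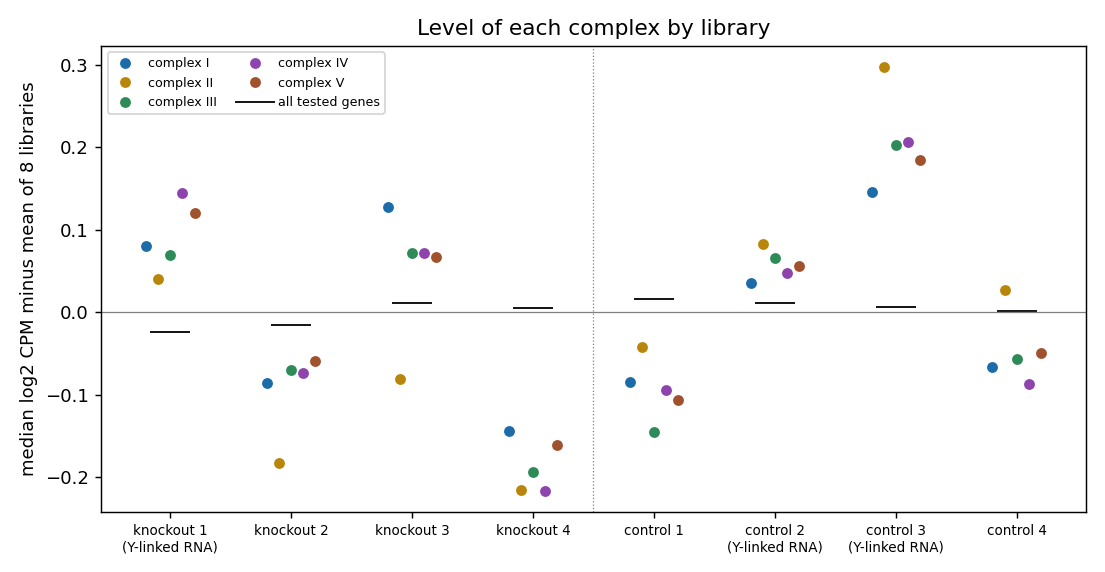
Median deviation of the members of each complex (log2 CPM minus each gene's mean over the 8 libraries, y axis) in each library, knockouts left and controls right, with a bar for the median of all tested genes. Control replicate 3 is highest (0.15 to 0.30 by complex) and knockout replicate 4 lowest (-0.22 to -0.14).

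Complex I takes electrons from NADH. Of 38 members, 37 were tested and none was called, with a median log2 fold change of -0.03. Leaving Ndufa4l2 aside, the values ran between -0.24 for Ndufa1, a small membrane-arm subunit, and 0.14 for Ndufa6, an accessory subunit. Ndufa1 had 33.0, 28.3, 31.5 and 27.7 CPM in knockouts and 32.0, 35.7, 41.8 and 32.4 CPM in controls, which overlapped (adjusted p = 0.205, edgeR). Core subunits of the electron-transferring arm (Ndufv1, Ndufv2, Ndufs1, Ndufs3, Ndufs7 and Ndufs8) ran between -0.21 and -0.01.

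Ndufa4l2 stood apart from the rest of complex I in its value. It is a paralogue of Ndufa4 and is known as a target of the hypoxia factor HIF-1 that lowers complex I activity under low oxygen, while Ndufa4 itself is now placed in complex IV. Ndufa4l2 had 310.6, 328.4, 470.0 and 369.3 CPM in knockout replicates 1 to 4 and 308.2, 233.4, 143.3 and 217.5 CPM in control replicates 1 to 4. Every knockout library was above every control library, although knockout replicate 1 and control replicate 1 were close. The log2 fold change was 0.71 ± 0.22 (SE, n = 4 each), a 95% interval of 0.23 to 1.20, and the adjusted p of 0.0708 (edgeR) missed the threshold. DESeq2 (adjusted p = 0.00807) and limma-voom with quality weights (0.0271) called it, as did edgeR without control replicate 1 (0.90, adjusted p = 0.0312). The adjusted p over all alternatives ran between 0.00807 and 0.179.

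Per kilobase of transcript, Ndufa4l2 was the highest of the tested complex I members, at 396 ± 76.4 CPM in knockouts and 242 ± 72.4 CPM in controls. Ndufa4 had 153 ± 24.9 and 150 ± 51.5 CPM per kilobase in knockouts and controls (SD, n = 4 each). Unscaled for length, Ndufa4 had 85.8, 70.4, 67.5 and 58.2 CPM in knockouts and 46.4, 63.5, 102.5 and 64.3 CPM in controls, with control replicates 1 and 3 at the ends of its range. In the controls the paralogues ran in opposite directions, with Ndufa4l2 highest and Ndufa4 lowest in replicate 1 and the reverse in replicate 3. The ratio of Ndufa4l2 to Ndufa4 CPM was 3.62, 4.67, 6.97 and 6.34 in knockouts and 6.65, 3.68, 1.40 and 3.38 in controls, which overlapped.

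Ndufa4l2 lies at chr10:127514967-127517154 (plus strand, GRCm38), and its exons overlap those of Shmt2, the mitochondrial serine hydroxymethyltransferase, on the opposite strand. Use of strand in counting is not given in the sources used here. Shmt2 had 113.5 ± 14.9 CPM in knockouts and 141.1 ± 11.9 CPM in controls (SD, n = 4 each), so its value lay on the other side of 0 from that of Ndufa4l2 (log2 fold change -0.31, adjusted p = 0.0907, edgeR). Ndufa4l2 is also known from pericytes. The 7 pericyte and smooth muscle markers summed to 43.4 to 55.5 CPM in knockouts and 49.7 to 57.7 CPM in controls, nearly all of it Cspg4 (43.4 ± 4.85 against 49.6 ± 3.83 CPM). Among the others, Des was at 0 counts in every library, Pdgfrb at 0 in every knockout library and 0.05 CPM on average in controls, and Rgs5 at 0.03 CPM in knockouts and 0.04 CPM in controls. Acta2, smooth muscle actin, rose to 3.60 ± 0.73 CPM in knockouts against 1.13 ± 0.37 CPM in controls (log2 fold change 1.67, adjusted p = 0.00723, edgeR). Tagln, another smooth muscle gene, lay the other way without passing, at 1.36 ± 0.14 CPM in knockouts and 2.01 ± 0.29 CPM in controls (-0.56, adjusted p = 0.117, edgeR), with no overlap. The part of these genes in the Ndufa4l2 value was not tested.

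Ndufs5, an accessory subunit of complex I, was counted at 0.04 to 0.07 CPM in knockouts and 0.03 to 0.10 CPM in controls and was not tested. A transcript of the near-identical gene BC002163 matches it at 99.4% identity, and that gene had 0.10 CPM in knockouts and 0.09 CPM in controls. The treatment of reads that match both is not given in the sources used here. These values say little about Ndufs5 RNA. 21 tested members have such a copy elsewhere in the genome (at least 95% identity over 200 bases), and 23 have an exon that overlaps another gene.

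Complex II, succinate dehydrogenase, belongs to both the tricarboxylic acid cycle and the respiratory chain. All 4 subunits had a lower mean in knockouts, with a median log2 fold change of -0.17, and none was called. The sign held for each of the 4 under all 20 alternatives, though the value of Sdhc reached 0.00 in some. The catalytic flavoprotein Sdha had 130.6, 115.6, 116.9 and 128.6 CPM in knockouts and 126.8, 128.3, 149.7 and 136.0 CPM in controls (-0.14 ± 0.09, SE, adjusted p = 0.349, edgeR). The iron-sulfur subunit Sdhb had 58.2, 47.9, 55.0 and 48.4 CPM in knockouts and 53.5, 60.1, 70.0 and 56.8 CPM in controls (-0.20 ± 0.11, adjusted p = 0.265, edgeR). The groups overlapped for both genes, with control replicate 3 highest. The membrane anchor Sdhc was closest to 0, at 82.0, 74.2, 75.3 and 65.1 CPM in knockouts and 70.0, 79.4, 91.6 and 73.4 CPM in controls (-0.08 ± 0.11, adjusted p = 0.655, edgeR).

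Sdhd, the other membrane anchor, had the largest negative value within complex II. It had 53.3, 48.7, 50.5 and 44.8 CPM in knockouts and 55.8, 62.4, 85.5 and 57.4 CPM in controls. The groups did not overlap, and control replicate 3 was well above the other controls. The log2 fold change was -0.40 ± 0.13 (SE, n = 4 each), with a 95% interval of 0.616 to 0.927-fold and an adjusted p of 0.0834 (edgeR). It was called with scaling by library totals (-0.52, adjusted p = 0.0358) and by limma-voom with quality weights (-0.36, adjusted p = 0.0494), and was -0.24 (adjusted p = 0.335) in the 5 libraries without Y-linked transcripts.

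Timm8b, an import chaperone gene on the other strand, starts 98 bases from the GENCODE start of Sdhd. It had 14.4 ± 0.66 CPM in knockouts and 15.2 ± 2.99 CPM in controls (SD, n = 4 each). Its log2 fold change was -0.08 (adjusted p = 0.754, edgeR). The RefSeq start of Sdhd lies closer to Timm8b than the GENCODE start does. The stretch printed above runs from this RefSeq start back into the first annotated exon bases of Timm8b. Its NRF1 motif starts 79 bases before the RefSeq start of Sdhd and lies within those exon bases. Its ETS motif starts 46 bases before the RefSeq start and lies between it and the Timm8b exon.

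**Figure D3:**
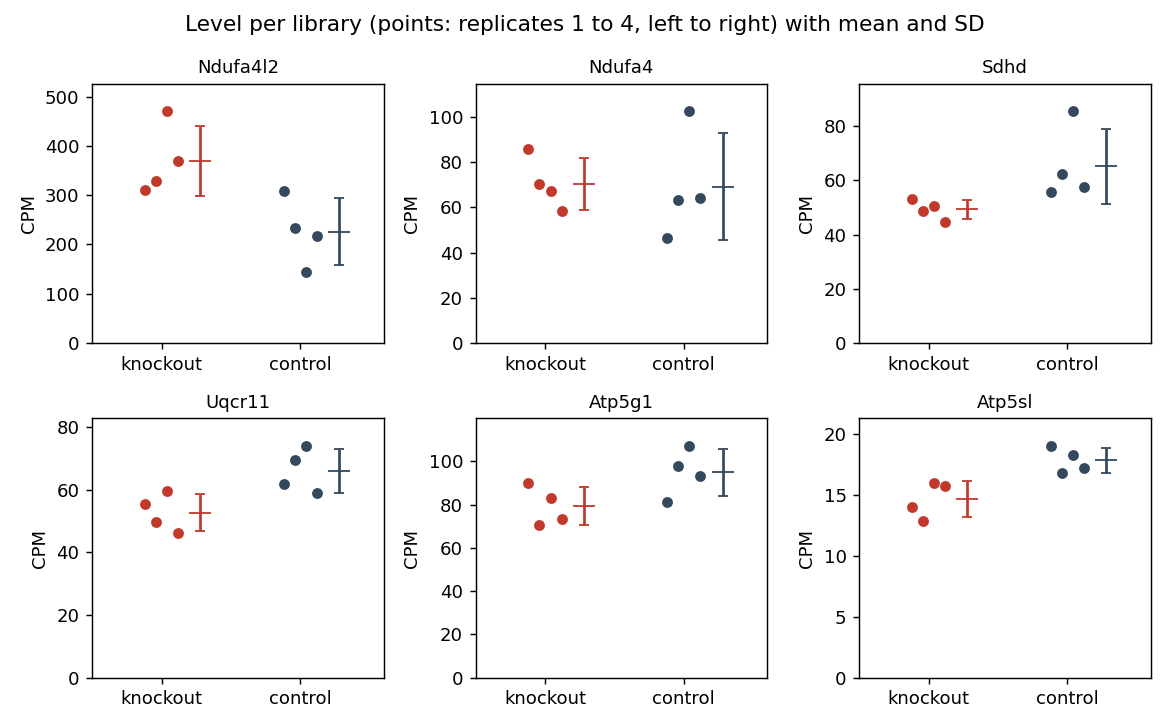
CPM in each library (points, replicates 1 to 4 from left to right, with mean and SD beside them) for the 5 members with an unadjusted p under 0.05 and Ndufa4, the paralogue of Ndufa4l2. Knockouts and controls do not overlap for Ndufa4l2, Sdhd and Atp5sl, and do so for the other 3 genes.

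Complex III moves electrons to cytochrome c. All 8 members were tested and none was called, with values from -0.32 for Uqcr11 to 0.10 for Uqcr10, both small subunits of the complex. Uqcr11 had 55.4, 49.8, 59.7 and 46.1 CPM in knockouts and 61.8, 69.6, 74.0 and 58.9 CPM in controls. The groups overlapped by a single library each, knockout replicate 3 and control replicate 4. Its log2 fold change of -0.32 ± 0.11 (SE) had an adjusted p of 0.0833 (edgeR). It was called with scaling by library totals (-0.43, adjusted p = 0.0336) and by limma-voom with quality weights (-0.37, adjusted p = 0.0316).

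The core proteins of complex III had values near 0. Uqcrc1 had 301.8, 278.3, 284.0 and 258.2 CPM in knockouts and 286.8, 306.7, 347.4 and 293.3 CPM in controls (-0.14 ± 0.09, SE, adjusted p = 0.387, edgeR). Uqcrc2 had 127.9, 116.9, 114.8 and 110.9 CPM in knockouts and 106.9, 124.9, 147.9 and 116.2 CPM in controls (-0.08 ± 0.11, adjusted p = 0.692, edgeR). Both overlapped between the groups. The Rieske protein Uqcrfs1 had a 95% interval within 1.5-fold, as did every other member of complex III.

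Complex IV, cytochrome c oxidase, reduces oxygen. 12 of its 18 members were tested, none was called, and their median log2 fold change was -0.03. Cox4i1, the widely expressed form of subunit 4, had 268.0, 230.9, 248.4 and 204.4 CPM in knockouts and 241.7, 254.6, 258.9 and 211.8 CPM in controls, with knockout replicate 1 highest and knockout replicate 4 lowest. Its log2 fold change was -0.02 ± 0.11 (SE, adjusted p = 0.913, edgeR). Cox7a2l, known for joining complexes III and IV into supercomplexes, had 173.2, 167.8, 171.7 and 145.5 CPM in knockouts and 164.8, 157.0, 149.5 and 147.3 CPM in controls (0.09 ± 0.09, adjusted p = 0.553, edgeR). Cox7c had the largest positive value of the complex, 0.13 ± 0.11 (adjusted p = 0.482, edgeR), and its groups also overlapped.

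The isoform sets of complex IV had the same high and low forms in both groups. Cox6a2, the heart and muscle form of subunit 6a, and Cox8c had 0 counts in all 8 libraries, which allows up to 0.0248 CPM over the knockout libraries and 0.0224 CPM over the control libraries at 3 counts a group (counting error only). Cox4i2, known from lung, Cox7b2 and Cox8b had 1 count in 1 library each. Cox7a1, a heart and muscle form, had 0.04, 0.16, 0.10 and 0.00 CPM in knockouts and 0.14, 0.03, 0.00 and 0.12 CPM in controls, close to the level of a few reads. Their widely expressed counterparts Cox6a1, Cox8a, Cox7b and Cox7a2 had 138, 130, 82.3 and 108 CPM on average in knockouts, against 152, 130, 81.5 and 111 CPM in controls.

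Cox6b2, a form known from testis, was low but measurable, at 0.97, 1.05, 0.84 and 0.95 CPM in knockouts and 0.98, 1.76, 1.32 and 1.37 CPM in controls. The groups overlapped by knockout replicate 2 and control replicate 1, and its log2 fold change of -0.51 ± 0.25 (SE) had an adjusted p of 0.22 (edgeR). Its 95% interval was the widest of the members. Per kilobase it stood at 2.18 ± 0.20 CPM in knockouts and 3.12 ± 0.73 CPM in controls, against 215 ± 28.1 and 218 ± 24.1 CPM for Cox6b1 in knockouts and controls (SD, n = 4 each).

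**Figure D4:**
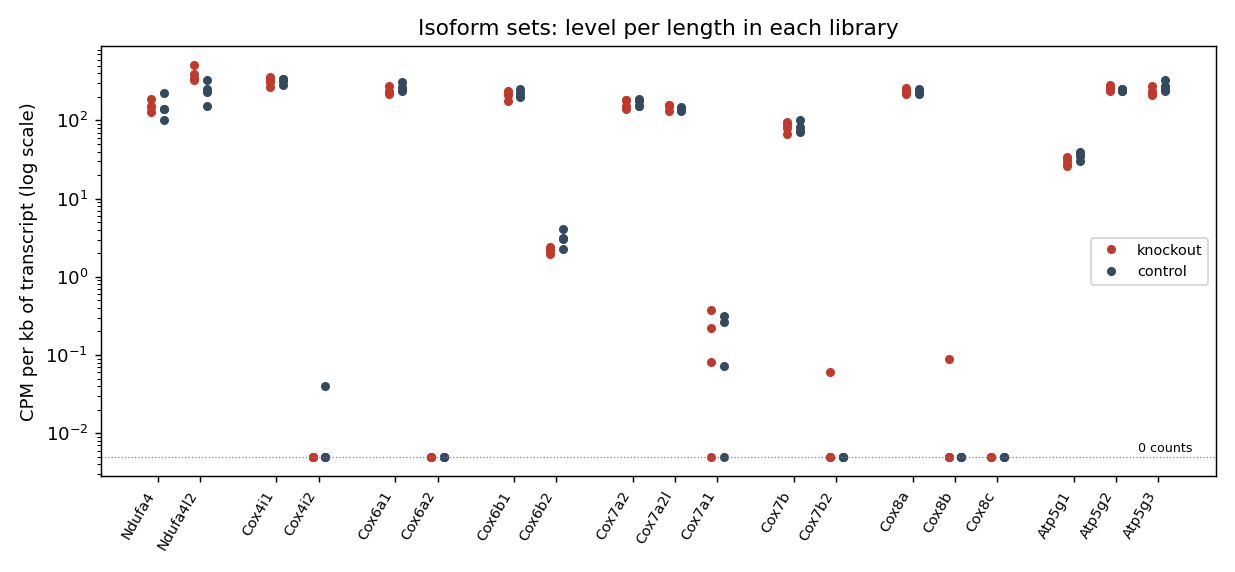
CPM per kilobase of transcript in each library (log axis, knockout points left of control points, 0 counts drawn on the dotted line) for the isoform sets. Cox4i2, Cox6a2, Cox7a1, Cox7b2, Cox8b and Cox8c lie at or near 0 counts in both groups, and Cox6b2 lies between these and the widely expressed forms.

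Complex V makes ATP. All 17 members were tested and none was called, and each 95% interval lay within 1.5-fold. Atp5b, the catalytic beta subunit, had 1266, 1070, 990.2 and 1034 CPM in knockouts and 915.4, 1079, 1215 and 1091 CPM in controls, with the highest library in the knockouts and the lowest in the controls. Its log2 fold change was 0.02 ± 0.12 (SE, adjusted p = 0.934, edgeR), a 95% interval of 0.845 to 1.22-fold. The alpha subunit Atp5a1 had 794.6, 694.9, 625.0 and 639.0 CPM in knockouts and 659.1, 700.4, 823.3 and 776.7 CPM in controls (-0.10 ± 0.11, adjusted p = 0.599, edgeR). Atp5d, the delta subunit of the central stalk, shared the largest positive value with Atp5s. Atp5d was at 0.17 ± 0.09 (adjusted p = 0.278, edgeR) and Atp5s at 0.17 ± 0.16 (adjusted p = 0.530, edgeR). Atp5d had 236.1, 200.9, 221.5 and 188.1 CPM in knockouts and 179.2, 179.8, 198.6 and 194.2 CPM in controls.

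Atp5sl, whose product is known in complex I assembly under the name Dmac2 and is no ATP synthase subunit, had the largest negative value among the Atp5 symbols. It had 14.0, 12.9, 16.0 and 15.8 CPM in knockouts and 19.0, 16.8, 18.3 and 17.3 CPM in controls, with no overlap. Its log2 fold change was -0.28 ± 0.11 (SE, adjusted p = 0.133, edgeR), and it was called under none of the 20 alternatives, where the adjusted p ran between 0.0814 and 0.414.

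Atp5g1, Atp5g2 and Atp5g3 encode the same mature c subunit of the membrane ring. Atp5g1 had 89.8, 70.8, 83.0 and 73.4 CPM in knockouts and 81.2, 98.0, 107.0 and 93.1 CPM in controls (-0.26 ± 0.11, adjusted p = 0.158, edgeR). Atp5g2 had 164.1, 154.0, 158.3 and 137.7 CPM in knockouts and 140.1, 148.3, 149.8 and 138.9 CPM in controls (0.09 ± 0.08, adjusted p = 0.533, edgeR). Atp5g3 had 198.5, 161.5, 170.9 and 153.4 CPM in knockouts and 169.7, 197.7, 233.6 and 188.3 CPM in controls (-0.21 ± 0.12, adjusted p = 0.299, edgeR). The groups overlapped for each of the 3 genes, and Atp5g1 was called only with scaling by library totals (-0.37, adjusted p = 0.0466). Atp5g1 and Atp5g2 have near-identical copies elsewhere in the genome.

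Between complexes, the levels per length differed more than the groups did. The median member had 50.7 CPM per kilobase in knockouts and 51.7 in controls for complex I, and 41.2 in knockouts and 49.6 in controls for complex II. For complex III it had 124 CPM per kilobase in knockouts and 125 in controls. It had 157 in knockouts and 162 in controls for complex IV, and 170 in knockouts and 162 in controls for complex V. Lengths are medians of the annotated coding transcripts, so a gene with long annotated transcripts (Atp5g1, 2675.5 bases) reads low on this scale.

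Genes that serve the chain without belonging to it gave few calls or none. At the 8.87% called over all tested genes, most of these lists are so short that few calls or none would be found anyway. Of the assembly factors, 0 of 14 for complex I, 0 of 4 for complex II, 0 of 6 for complex III, 0 of 20 for complex IV and 0 of 3 for complex V passed. Their most abundant members included Acad9 of complex I (140 ± 7.54 CPM in knockouts and 148 ± 12.5 CPM in controls) and Coa5 of complex IV (51.9 ± 0.69 and 54.2 ± 8.12 CPM in knockouts and controls). Of 5 genes outside the symbol rule that act with the chain, 0 passed. They include cytochrome c1 (Cyc1, log2 fold change -0.12) and the ATP synthase inhibitor Atpif1 (0.05). None of 6 carriers, 18 import genes and 13 tricarboxylic acid cycle genes passed, with citrate synthase (Cs) at 502 ± 44.2 CPM in knockouts and 411 ± 29.8 CPM in controls (log2 fold change 0.29, adjusted p = 0.0927, edgeR).

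Of 77 mitochondrial ribosomal protein genes, which serve translation inside the organelle, 1 passed and 58 had a log2 fold change below 0 (median -0.11). Over all tested genes 8.87% passed and 53.1% lay below 0 (median -0.02). Whether this lean holds under other scalings or sets of libraries is not shown here. The gene that passed was Mrps12, which fell to 13.9 ± 2.05 CPM in knockouts against 20.2 ± 2.31 CPM in controls (-0.54, adjusted p = 0.0354, edgeR). It kept its call only without knockout replicate 3 and without control replicate 1 among the 8 fits that leave out a library, and was -0.33 (adjusted p = 0.329) in the 5 libraries without Y-linked transcripts. Across libraries these genes followed the respiratory chain in control replicate 3 (median deviation 0.18 for both) but not in knockout replicate 1, where they deviated by -0.10 and the respiratory chain members by 0.11.

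Among 17 regulators of mitochondrial biogenesis, 1 rose and 1 fell, beside 4.33% higher and 4.54% lower over all tested genes. At an unadjusted p under 0.05 (edgeR), 7 of the 17 passed, against 26.2% of all tested genes. 11 of the 17 had a log2 fold change below 0 (median -0.17), against 53.1% of all tested genes (median -0.02). Ppargc1a, the coactivator PGC-1 alpha, fell to 0.18, 0.59, 0.26 and 0.41 CPM in knockouts against 1.79, 1.05, 0.65 and 1.05 CPM in controls (log2 fold change -1.64 ± 0.42, SE, adjusted p = 0.0363, edgeR). Its call held only without knockout replicate 2 and without control replicate 3 among the fits that leave out a library (adjusted p up to 0.0855). In the 5 libraries without Y-linked transcripts Ppargc1a had -1.75 (adjusted p = 0.0708, edgeR). Polg2, the accessory subunit of the mitochondrial DNA polymerase, rose to 11.1, 10.5, 13.2 and 10.5 CPM in knockouts against 8.10, 7.73, 5.76 and 7.13 CPM in controls (0.66 ± 0.15, adjusted p = 0.0226, edgeR). Its adjusted p was 0.0528 without knockout replicate 2, 0.0508 without control replicate 2 and 0.0522 without control replicate 4. In the 5 libraries without Y-linked transcripts Polg2 had 0.58 (adjusted p = 0.142, edgeR). The factors whose motifs were searched did not pass: Nrf1 had a log2 fold change of 0.08, Gabpa of -0.17 and Yy1 of 0.10 (adjusted p = 0.636, 0.274 and 0.597, edgeR).

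Of 9 genes listed for the hypoxia response, 2 rose, 7 did not pass, and all 9 log2 fold changes were above 0 (median 0.33). Over all tested genes 4.33% were called higher and 53.1% had a log2 fold change below 0. The list was chosen with earlier results of these data known. Hif1a, the oxygen-regulated subunit of HIF-1, rose to 669.6, 511.7, 397.7 and 467.6 CPM in knockouts against 357.4, 341.2, 360.0 and 349.9 CPM in controls (0.54 ± 0.14, SE, adjusted p = 0.0412, edgeR). Among fits that leave out a library its call held only without knockout replicate 3 (adjusted p up to 0.103), and it was 0.38 (adjusted p = 0.208) in the 5 libraries without Y-linked transcripts. Higd1a, a hypoxia-induced partner of complex IV, rose to 135.0, 108.7, 155.9 and 136.0 CPM in knockouts against 112.0, 101.7, 74.0 and 86.7 CPM in controls (0.52 ± 0.14, adjusted p = 0.0492, edgeR). Its groups overlapped, its call held only without knockout replicate 2 and without control replicate 1 among those fits, and scaling by library totals gave 0.41 (adjusted p = 0.0952). Higd1a was called under 5 of the 20 alternatives. Those without the call included limma-voom (adjusted p = 0.0512) and edgeR with a term for Y-linked transcripts (adjusted p = 0.0731). In the 5 libraries without Y-linked transcripts Higd1a had 0.43 (adjusted p = 0.246, edgeR). As with Ndufa4l2, Higd1a was lowest in control replicate 3 and highest in knockout replicate 3.

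Of 10 genes of pyruvate dehydrogenase and its regulation, 1 passed, beside 8.87% of all tested genes. The kinase Pdk2, which inactivates the enzyme, fell to 3.62, 5.47, 6.01 and 4.83 CPM in knockouts against 7.12, 8.76, 7.12 and 8.24 CPM in controls (log2 fold change -0.65 ± 0.18, SE, adjusted p = 0.0471, edgeR). The knockout and control libraries did not overlap. Among fits that leave out a library this call held only without knockout replicate 3 (adjusted p up to 0.127). In the 5 libraries without Y-linked transcripts Pdk2 had -0.50 (adjusted p = 0.245, edgeR). Pdk1, the hypoxia-induced kinase, had 72.2 ± 4.60 CPM in knockouts and 62.3 ± 17.7 CPM in controls (adjusted p = 0.475, edgeR).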

How the data were processed

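Keratinocyte RNA of 4 knockout and 4 control libraries was analysed from count tables. The authors deposited raw counts, whole numbers for each symbol. The submitters' processing notes name mm10, TopHat2 2.1.0 and SAMtools 0.1.18, and for the reads Trimmomatic 0.35 and FastQC 0.11.4. How reads were counted, and whether by strand, is not given in the sources used here. Reads of a gene and of its antisense or overlapping neighbour cannot be told apart, and near-identical copies are uncertain. The closing lines of each table, for reads in no gene (15.7 to 21.75%) and for ambiguous ones (0.918 to 1.11%), were left out. Mitochondrially encoded genes were not analysed here. One knockout library's file name carries another replicate number than its title, and the title was used.

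filterByExpr kept 13016 genes, and libraries were scaled by TMM. edgeR 4.0.16's quasi-likelihood test with robust dispersion (R 4.3.3) had genotype as its only term, with Benjamini-Hochberg adjustment over all tested genes at 0.05. Deviations use log2 CPM with a prior count of 2. DESeq2 1.42.0 and limma 3.58.1 were alternatives. The steps were tested on simulated data. The members, the lists of related genes and the alternatives were chosen with earlier results of these data known. Named members are those with the 2 highest means and the largest changes in each complex, all of complex II, the isoform sets and the members nearest the threshold. The values of 1 member are not reported here. Of each list of related genes up to 6 called genes are named, or the 2 with the highest means. Atp5sl and the other genes named for a low unadjusted p, Nrf1, Gabpa, Yy1, Shmt2, Timm8b, BC002163, Pdk1, Tagln and the collagen, Tyr, Pmel and Dct markers were added after their values were seen, as were the 95% intervals. Coordinates, exon overlaps, lengths and copies come from GENCODE M21 (GRCm38), where all 85 members were found, and promoter windows from RefSeq (GRCm38.p6).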

Additional observations from a re-analysis of the deposited data

Results flagged for a closer look

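In 8 of 158 groups of 4 libraries, a single library lay far from the other 3; chance flags about 1 in 20 such groups. Among respiratory chain genes these were single reads of Cox7b2 in knockout replicate 2 (0.0327 CPM), of Cox8b in knockout replicate 4 (0.0316 CPM) and of Cox4i2 in control replicate 4 (0.0292 CPM), with 0 in the other libraries of the group. The complex IV assembly gene Coa5 had 52.9 CPM in knockout replicate 4, against 51.5 to 51.6 CPM in the other knockouts. In control replicate 4 the keratin Krt10 had 6988 CPM against 4367 to 4556 CPM in the other controls. Perp, a desmosome gene, had 2781 CPM in the same library against 2463 to 2491 CPM. The muscle gene Tnni2 had 0.234 CPM there against 0.607 to 0.678 CPM. The neutrophil gene S100a9 had 7.21 CPM in control replicate 3, the library with the highest respiratory chain levels, against 0.831 to 1.34 CPM in the other controls, and its part in those levels was not tested.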

How the results depend on the processing

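Calls over the respiratory chain genes changed under few of the 20 alternatives. Members called higher numbered 1 with DESeq2 and with limma-voom quality weights, and 0 to 1 over the 8 fits that leave out a library. Members called lower numbered 3 with library totals and 2 with quality weights. Of 560 refitted values of 28 named members, 552 kept their side of the threshold and 8 gained a call, and the cause was not tested. Over all genes, calls higher and lower were 370 and 997 with library totals, 1093 and 917 with DESeq2, and 955 and 957 with quality weights. Restricting the fit to the 5 libraries that lack Y-linked transcripts, a smaller comparison, gave 141 and 242. Leaving out a library gave 200 to 678 higher and 262 to 569 lower, the lowest counts without knockout replicate 2. Higher calls also dropped by over 1.5 times without knockout replicate 1 and control replicates 2 and 3, and lower calls without knockout replicates 1 and 4 and control replicates 2 and 4. With replicate number as a block, 375 genes were higher and 348 lower, with 0 members. The labels give same-numbered libraries only a number in common. Their deviations correlated at -0.23 to -0.05, and no library correlated best with its own number. So few pairs cannot decide whether these libraries were paired. With 4 libraries a group, small shifts of single members lie below what the intervals resolve, and members at a few counts limit any statement to the depth.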
